A study of Mus musculus with 9 samples.

Results

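HC11-mutB1 cells were compared with HC11-FL control cells, 3 arrays against 3, to ask which transcripts differ when the SRF-interaction site of Mkl1 is mutated. HC11 is a mammary epithelial cell line derived from mid-pregnancy BALB/c mice, and it carries mutated p53. Each strain stably expressed an RFP-tagged Mkl1 construct: the full length protein (HC11-FL), the protein with a mutated B1 site (HC11-mutB1), or the protein without its SAP domain (HC11-ΔSAP). All 3 strains were sorted for RFP to similar levels and kept for 48 h in medium with 0.03% FCS and no EGF before total RNA was taken. Endogenous Mkl1 was present in every strain, and a strain with an empty vector was not analysed here. Each construct is represented by 1 sorted strain, so construct and strain cannot be told apart, and p-values measure only the spread between arrays of the same strain, whose origin in separate cultures is not stated in the sources used here. The comparison covered every probeset with a mean log2 value of at least 4 over the 6 arrays, which left 20280 of 34760 probesets and 13131 of 19937 genes when each gene was read from its brightest probeset. The third strain contributed to the variance estimate and is given beside the comparison only where stated.

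Mkl1, also called MRTF-A or Mrtfa, is a coactivator that is held in the cytoplasm by monomeric actin and moves to the nucleus when actin polymerises. There it binds serum response factor (SRF) through its basic B1 region, and SRF binds DNA at the CArG box of genes for actin, its binding proteins and cell adhesion. The SAP domain is a separate putative DNA-binding element of Mkl1. In the mammary gland Mkl1 is known for its part in the contractile myoepithelial cells that eject milk.

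The 6 arrays had median log2 values between 4.54 and 4.60 and between 20177 and 20403 probesets at or above 4. Correlations of these 6 arrays over all probesets were 0.994 to 0.995 within a strain and 0.985 to 0.988 between HC11-FL and HC11-mutB1. A value that recurred in another array occurred in 7129 of the tested probesets (35.2%), and 8 called probesets were identical in the 3 HC11-FL arrays and 5 in the 3 HC11-mutB1 arrays, which makes the spread of those probesets too small. Whether the probeset for Mrtfa also reads the constructs is not given in the sources used here, and it gave 10.08, 9.86 and 9.92 in the HC11-FL arrays and 9.89, 9.83 and 9.76 in the HC11-mutB1 arrays (log2 fold change -0.12, SE 0.07, adjusted p = 0.31). Srf gave 7.89, 7.84 and 7.86 in the HC11-FL arrays and 7.83, 7.80 and 7.72 in the HC11-mutB1 arrays (log2 fold change -0.08, SE 0.05, adjusted p = 0.35). The arrays of both strains overlapped for Mrtfa but not for Srf, and neither difference passed the test. Mrtfb, a relative of Mkl1, also did not pass (log2 fold change 0.13, adjusted p = 0.12), and Myocd lay below 4 in every array. The ternary complex factors Elk1 and Elk3, which also bind SRF, were lower (log2 fold change -0.54 and -0.45, adjusted p = 6.1e-04 and 4.6e-04).

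All 8 mammary epithelial markers were above the minimum, with Krt14, Epcam and Cdh1 between 9.87 and 11.48 in the 6 arrays. Of the defining markers of other cell types, Ptprc and Itgam of leukocytes, Pecam1, Kdr and Cdh5 of endothelium and Adipoq of adipocytes were below 4 in all 6 arrays. Of 8 fibroblast markers 7 were tested, and of these Pdgfra was higher (log2 fold change 0.51), which did not pass without HC11-FL replicate 1 or 3 or HC11-mutB1 replicate 1 or 2, while Pdgfrb and Dcn were lower (-0.87 and -0.48). Only 3 leukocyte, 2 endothelial and 4 adipocyte markers of 8 each were tested, with 1, 0 and 1 lower (Cd68, log2 fold change -0.34, and Fabp4, -0.97) and none higher.

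With an adjusted p limit of 0.01 and a minimum fold of 2, 337 probesets had higher values in HC11-mutB1 cells (1.66% of those tested) and 248 were lower (1.22%). By gene, 292 were higher (2.22%) and 224 lower (1.71%). Without a fold minimum 2062 genes were higher (15.7%) and 1408 lower (10.7%), and these shares are the background for the gene groups described here. The median fold of the called genes was 2.55 upward and 2.67 downward, with 45 genes at least 4-fold higher and 62 at least 4-fold lower, and the median log2 fold change of all genes was -0.01. The arrays of the strains did not overlap for any of the called genes. The genes nearest the fold limit were B4galnt3 (log2 fold change 1.00) inside and Mki67 (0.99) outside it for the higher genes, and Hspb6 and Hsd17b11 (both -1.0) for the lower genes, and no gene past 2-fold missed the adjusted p. Against HC11-ΔSAP cells, 302 genes were higher in HC11-mutB1 cells (2.3%) and 203 lower (1.55%) by the same filters. Of the 292 genes above HC11-FL, 87 (29.8%) were also called above HC11-ΔSAP and 6 below it. Of the 224 genes below HC11-FL, 81 (36.2%) were also called below HC11-ΔSAP and 7 above it. These comparisons share the HC11-mutB1 arrays.

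The largest increases included genes of membrane proteins and secreted proteins. Slc7a2, a transporter of cationic amino acids, was 5.85, 6.0 and 5.89 in the HC11-FL arrays and 9.33, 9.35 and 9.42 in the HC11-mutB1 arrays (10.9-fold, log2 fold change 3.45, SE 0.06, adjusted p = 6.6e-08). All HC11-mutB1 arrays were above all HC11-FL arrays by more than 3 log2 units. Sorcs2, a sorting receptor, was 5.50, 5.67 and 5.47 in the HC11-FL arrays and 8.64, 8.56 and 8.62 in the HC11-mutB1 arrays (8.31-fold, adjusted p = 7.8e-08). Lpar1, a receptor for lysophosphatidic acid, was 5.87, 5.78 and 6.01 in the HC11-FL arrays and 8.91, 9.0 and 8.72 in the HC11-mutB1 arrays (7.97-fold, adjusted p = 2.8e-07). Each of these genes moved from a low level in HC11-FL cells to a high one in HC11-mutB1 cells without overlap. Pxdn, a peroxidase of the extracellular matrix that cross-links collagen IV, was 7.37, 7.42 and 7.24 in the HC11-FL arrays and 10.03, 9.97 and 9.96 in the HC11-mutB1 arrays (6.27-fold). Igfbp4, which binds insulin-like growth factors, was 5.88, 6.0 and 6.31 in the HC11-FL arrays and 9.02, 8.95 and 8.80 in the HC11-mutB1 arrays (7.25-fold). Ptn, a heparin-binding growth factor, was 5.10, 5.17 and 5.16 in the HC11-FL arrays and 7.61, 7.55 and 7.47 in the HC11-mutB1 arrays (5.28-fold). The 20 genes with the largest rise among those with both strain means at 4 or more had folds from 5.19 to 10.9. The plot of the largest changes shows them by array.

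**Figure D1:**
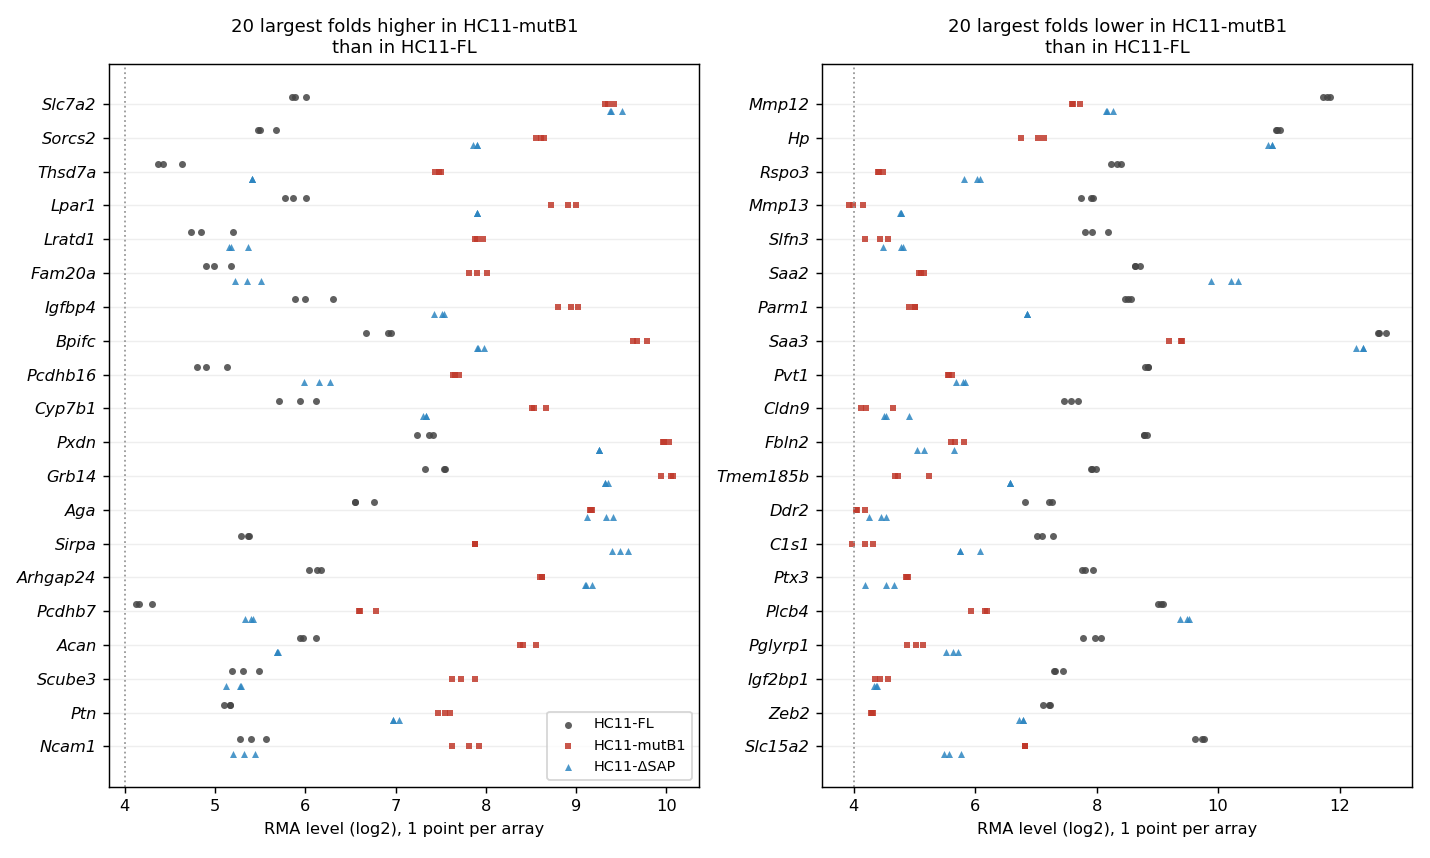
Log2 expression (x axis) of the genes with the largest fold change, higher and lower in HC11-mutB1 cells, with both strain means at 4 or more. Each point is 1 array, coloured by strain, and the dotted line marks log2 4, and the 20 genes with the largest rise had folds from 5.19 to 10.9 with no overlap between HC11-FL and HC11-mutB1 arrays.

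Several of these genes were high in HC11-ΔSAP cells too. The log2 fold change of HC11-ΔSAP against HC11-FL cells was 3.51 for Slc7a2, 2.34 for Sorcs2, 2.02 for Lpar1, 1.92 for Pxdn, 1.85 for Ptn and 1.43 for Igfbp4. In that comparison, which shares the HC11-FL arrays, 14 of the 20 genes were higher by the same adjusted p and fold and 4 missed the adjusted p, where 2.0% of all genes were higher. Of the 20, 16 were higher in HC11-mutB1 than in HC11-ΔSAP cells by adjusted p, 11 of them at least 2-fold, and 2 were lower (Sirpa and Arhgap24). By adjusted p at any fold 10.7% of all genes were higher than in HC11-ΔSAP cells and 9.75% lower. Acan, the core protein of the proteoglycan aggrecan, was 6.12, 5.94 and 5.97 in the HC11-FL arrays and 8.56, 8.38 and 8.41 in the HC11-mutB1 arrays, with a log2 difference of 2.76 from HC11-ΔSAP cells (adjusted p = 1.9e-07). Ncam1, a neural cell adhesion molecule, was 5.57, 5.40 and 5.27 in the HC11-FL arrays and 7.63, 7.82 and 7.92 in the HC11-mutB1 arrays, with a difference of 2.47 from HC11-ΔSAP (adjusted p = 3.3e-06). Scube3, a secreted protein with EGF-like repeats, was 5.49, 5.18 and 5.31 in the HC11-FL arrays and 7.88, 7.62 and 7.73 in the HC11-mutB1 arrays, with a difference of 2.52 (adjusted p = 1.9e-06). In these 3 genes only HC11-mutB1 arrays stood high. Lratd1 and Fam20a were also 2.68 and 2.54 log2 units above HC11-ΔSAP cells. In contrast, Sirpa, the receptor for CD47, was 7.88 in all 3 HC11-mutB1 arrays, 2.53 above HC11-FL cells and -1.60 relative to HC11-ΔSAP cells. Among genes with an HC11-FL mean under 4, where the fold depends on the array's floor, Edil3, a matrix ligand of integrins, was 3.91, 3.63 and 3.54 in the HC11-FL arrays and 7.31, 7.20 and 7.36 in the HC11-mutB1 arrays, and the sodium channel gene Scn3a was 3.62, 3.90 and 4.06 in the HC11-FL arrays and 6.64, 6.52 and 6.70 in the HC11-mutB1 arrays.

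Several cadherin genes rose. Of 29 tested, 12 were higher and 3 lower, 10 of them at least 2-fold higher (among them 4 genes of the protocadherin beta cluster), and their median log2 fold change was 0.12 against -0.01 for all genes. Cdh3, P-cadherin of basal epithelial cells, was 6.85, 6.57 and 6.62 in the HC11-FL arrays and 8.82, 8.61 and 8.75 in the HC11-mutB1 arrays (log2 fold change 2.04, SE 0.08, adjusted p = 1.8e-06). Cdh2, N-cadherin, was 6.23, 6.49 and 6.29 in the HC11-FL arrays and 8.16, 8.16 and 8.10 in the HC11-mutB1 arrays (log2 fold change 1.80, SE 0.07, adjusted p = 1.4e-06). Both were high in every HC11-mutB1 array, and Cdh2 was higher still in HC11-ΔSAP cells (3.43 against HC11-FL). Fat2, a giant cadherin of squamous epithelium, was 6.16, 6.05 and 6.06 in the HC11-FL arrays and 7.88, 7.88 and 8.05 in the HC11-mutB1 arrays and stood 1.35 above HC11-ΔSAP cells (adjusted p = 6.2e-06). Cdh13, a cadherin anchored by a lipid, rose by a log2 value of 1.89. In the whole protocadherin beta cluster, not all of which is in that list, of 22 genes with a probeset 11 were tested, 10 were higher, 8 at least 2-fold, none was lower, and their median log2 fold change was 1.57. Pcdhb16 was 4.90, 5.14 and 4.80 in the HC11-FL arrays and 7.70, 7.63 and 7.66 in the HC11-mutB1 arrays (6.58-fold), and Pcdhb7 was 4.13, 4.30 and 4.15 in the HC11-FL arrays and 6.6, 6.79 and 6.61 in the HC11-mutB1 arrays (5.54-fold). The genes of this cluster are related in sequence and lie together on chromosome 18, so values of single members are uncertain. The chromosome itself was shifted upward as described with the chromosomes. After each array was centred on the median of each of 10 bins of genes along a chromosome, 12 cadherin genes were higher and 7 lower.

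Many genes of basal mammary cells rose and several luminal genes fell. Of 24 tested keratins and basal genes 12 were higher and 5 lower (8 after that centring), with a median of 0.31. Jag1, a ligand of Notch receptors, was 6.74, 6.48 and 6.81 in the HC11-FL arrays and 8.74, 8.74 and 8.88 in the HC11-mutB1 arrays (log2 fold change 2.11, SE 0.09, adjusted p = 1.8e-06). Itgb4, the integrin of hemidesmosomes, was 8.25, 8.16 and 8.22 in the HC11-FL arrays and 9.66, 9.62 and 9.60 in the HC11-mutB1 arrays (log2 fold change 1.42, SE 0.04, adjusted p = 4.2e-07). Krt17 was 9.82, 9.73 and 9.67 in the HC11-FL arrays and 10.98, 10.88 and 10.84 in the HC11-mutB1 arrays (log2 fold change 1.16, SE 0.06, adjusted p = 4.2e-06). None of these arrays overlapped, and Krt17 and Itgb4 were higher in HC11-mutB1 than in HC11-ΔSAP cells as well (log2 0.54 and 0.75). Nrg1, a ligand of ErbB receptors, was 5.72, 5.98 and 6.07 in the HC11-FL arrays and 7.65, 7.65 and 7.38 in the HC11-mutB1 arrays and stood 1.59 above HC11-ΔSAP cells, whose level was close to that of HC11-FL (0.05). In the opposite direction Acta2, smooth muscle actin of myoepithelial cells and a classical SRF target, was 7.62, 7.57 and 7.44 in the HC11-FL arrays and 6.51, 6.44 and 6.46 in the HC11-mutB1 arrays (log2 fold change -1.07, SE 0.05, adjusted p = 5.7e-06). It was lower in every HC11-mutB1 array. Vim, the intermediate filament vimentin, was also lower (log2 fold change -1.21). Of 19 luminal genes tested, 2 were higher and 7 lower, with a median of -0.16. Gata3, the transcription factor of luminal cells, was 9.07, 9.09 and 9.09 in the HC11-FL arrays and 8.02, 7.91 and 8.02 in the HC11-mutB1 arrays (log2 fold change -1.10, SE 0.05, adjusted p = 2.0e-06), and the paired keratins Krt8 and Krt18 had log2 fold changes of -0.72 and -0.65. Btn1a1, a protein of the milk fat globule, rose (1.24). In HC11-ΔSAP against HC11-FL cells, log2 fold changes were -0.91 for Gata3, -0.75 for Acta2, -0.32 for Krt8, -1.36 for Krt18 and 0.72 for Btn1a1.

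**Figure D2:**
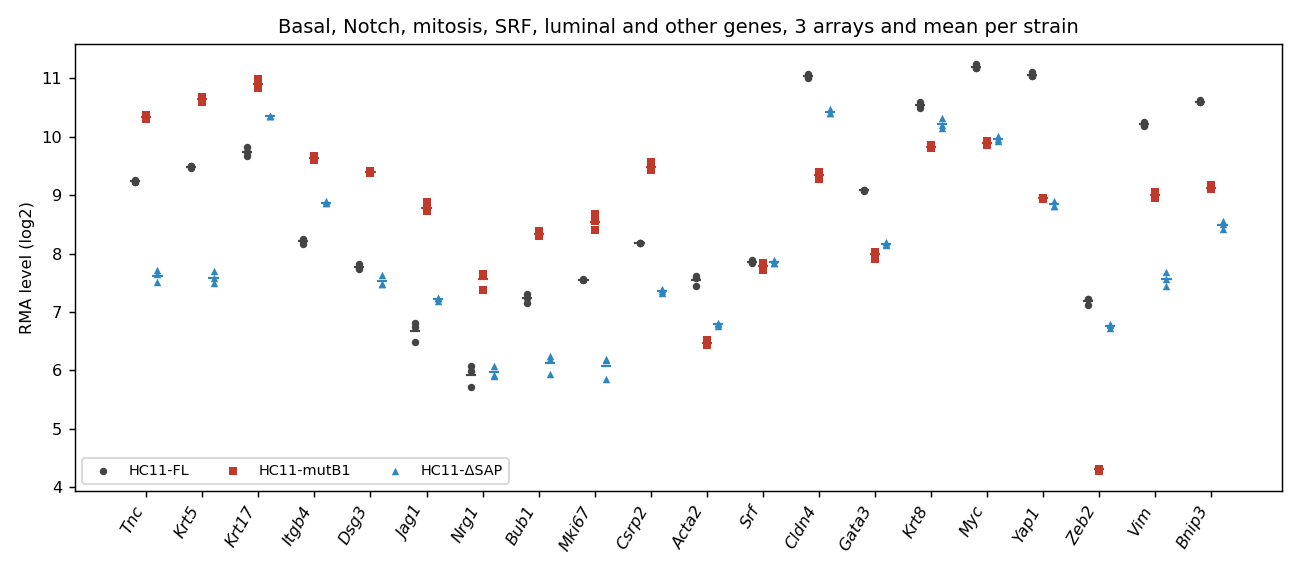
Log2 expression (y axis) of 20 genes in the 3 strains, with 1 point per array and a bar at the mean of each strain. Krt17, Itgb4, Jag1 and Nrg1 sit higher in the HC11-mutB1 arrays than in those of HC11-FL cells, and Acta2, Gata3, Krt8 and Yap1 sit lower.

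Junction genes moved in both directions. Of 50 tested junction genes 15 were higher and 17 lower, with a median of 0.03. Leaving out probesets with a repeated value also took members out of the group, and 9 of those left were higher. Dsg3, a desmosomal cadherin of stratified epithelium, was 7.74, 7.82 and 7.77 in the HC11-FL arrays and 9.40, 9.38 and 9.41 in the HC11-mutB1 arrays (log2 fold change 1.62, SE 0.05, adjusted p = 6.5e-07) and stood 1.87 above HC11-ΔSAP cells. Pkp1 and Dsp, which link desmosomes to keratin, had log2 fold changes of 1.35 and 1.05 and are named after their values were seen. Several tight junction genes fell. Cldn9 was 7.47, 7.69 and 7.58 in the HC11-FL arrays and 4.12, 4.65 and 4.21 in the HC11-mutB1 arrays (9.50-fold lower), Ocln, occludin, was 6.16, 6.21 and 6.03 in the HC11-FL arrays and 4.39, 4.90 and 4.57 in the HC11-mutB1 arrays (2.86-fold lower), and Ehf, a transcription factor of epithelial cells, was 3.13-fold lower. Of 27 tested laminins and integrins 8 were higher and 4 lower. Lama3, a chain of the laminin bound by hemidesmosomes, was 5.77, 5.78 and 5.90 in the HC11-FL arrays and 7.24, 7.45 and 7.43 in the HC11-mutB1 arrays (2.94-fold higher), and Itgb3 was 2.13-fold higher.

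Several collagens and matrix glycoproteins rose while several matrix enzymes fell. Of 32 collagens tested 11 were higher and none lower, with a median of 0.01. Among the fewer members left without the probesets that had repeated values, 7 were higher. Col6a1, a chain of the beaded filament collagen VI, was 7.58, 7.60 and 7.51 in the HC11-FL arrays and 9.58, 9.45 and 9.49 in the HC11-mutB1 arrays (log2 fold change 1.94, SE 0.05, adjusted p = 2.3e-07). Col9a3 rose 2.03-fold, but missed the adjusted p when only the 6 arrays were fitted (adjusted p = 0.011). Of 40 matrix glycoproteins 12 were higher and 8 lower, and 4 or 5 were lower when any 1 of the 6 arrays or HC11-ΔSAP replicate 2 was left out. Ltbp1, which stores latent TGF-beta in the matrix, was 8.30, 8.22 and 8.33 in the HC11-FL arrays and 9.76, 9.74 and 9.65 in the HC11-mutB1 arrays (log2 fold change 1.43, SE 0.05, adjusted p = 8.3e-07). Mgp, the matrix Gla protein, was 7.49, 7.73 and 7.61 in the HC11-FL arrays and 5.26, 5.07 and 5.38 in the HC11-mutB1 arrays (5.18-fold lower), and Fbln2, fibulin, was 8.57-fold lower. Of 48 matrix enzymes 10 were higher and 16 lower, 10 of these at least 2-fold, with a median of -0.12. Adam12 rose 2.56-fold, with 8.39 in all 3 HC11-FL arrays. Mmp13, a collagenase, was 7.94, 7.91 and 7.75 in the HC11-FL arrays and 3.93, 4.15 and 3.99 in the HC11-mutB1 arrays (14.3-fold lower). In HC11-ΔSAP against HC11-FL cells the log2 fold changes were -0.81 for Mgp, -3.51 for Fbln2 and -3.08 for Mmp13. They were 1.32 for Col6a1 and 1.18 for Ltbp1, and Adam12 went the other way there (-0.96). P4ha2, a subunit of the enzyme that hydroxylates prolines of collagen, was 7.78, 7.82 and 7.86 in the HC11-FL arrays and 5.80, 5.81 and 5.85 in the HC11-mutB1 arrays (4.00-fold lower).

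Several genes of the EGF family and of its feedback rose. Of 20 tested members of EGF and ErbB signalling 8 were higher and none lower, 5 at least 2-fold, with a median of 0.21. That median was 0.44 in HC11-ΔSAP against HC11-FL cells, a comparison that shares the HC11-FL arrays. Relative to HC11-ΔSAP cells 3 of the 20 were higher and 7 lower, where 10.7% of all genes were higher and 9.75% lower. Ereg, epiregulin, was 6.41, 6.29 and 6.54 in the HC11-FL arrays and 8.63 in all 3 HC11-mutB1 arrays, and it was higher still in HC11-ΔSAP cells (log2 3.13 against HC11-FL). Its neighbour Epgn, epigen, was 6.27, 6.53 and 6.59 in the HC11-FL arrays and 7.84, 8.11 and 7.99 in the HC11-mutB1 arrays (log2 fold change 1.52, SE 0.11, adjusted p = 3.3e-05). The phosphatase Dusp6, which inactivates ERK, was 7.52, 7.38 and 7.44 in the HC11-FL arrays and 8.77, 8.89 and 8.76 in the HC11-mutB1 arrays (log2 fold change 1.36, SE 0.06, adjusted p = 1.8e-06), and the feedback inhibitors Lrig3, Spred2 and Errfi1 had log2 fold changes of 1.38, 0.83 and 0.57. No array of these genes overlapped between the strains. Of 41 other growth factors and receptors 9 were higher and 12 lower. Vegfc, a lymphatic growth factor, was 6.90, 6.96 and 6.92 in the HC11-FL arrays and 8.39, 8.36 and 8.25 in the HC11-mutB1 arrays and stood 1.25 above HC11-ΔSAP cells (adjusted p = 4.3e-06). Fgfr1 rose 2.62-fold. Angpt1, a ligand of the Tie2 receptor, was 10.39, 10.57 and 10.41 in the HC11-FL arrays and 7.94, 7.90 and 8.07 in the HC11-mutB1 arrays (5.61-fold lower), and Kitl, the ligand of Kit, was 2.32-fold lower.

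Some TGF-beta, Notch and Wnt genes moved in each direction, where 15.7% of all genes were higher and 10.7% lower. Of 43 TGF-beta and BMP genes 13 were higher and 5 lower, with a median of -0.01. Their share of lower genes was little above that of all genes. Inhba, the activin subunit, was 9.07, 9.07 and 9.17 in the HC11-FL arrays and 10.39, 10.33 and 10.33 in the HC11-mutB1 arrays (log2 fold change 1.24, SE 0.05, adjusted p = 1.1e-06), and its antagonist Fst, follistatin, was 6.50, 6.72 and 6.54 in the HC11-FL arrays and 7.82, 7.91 and 7.90 in the HC11-mutB1 arrays (log2 fold change 1.29, SE 0.06, adjusted p = 5.4e-06). Both were high in all HC11-mutB1 arrays. The coreceptor Tgfbr3 was 8.96, 8.98 and 9.05 in the HC11-FL arrays and 6.09, 6.06 and 6.22 in the HC11-mutB1 arrays (7.34-fold lower), and Nog, a BMP antagonist, was 2.64-fold lower. Of 25 Notch genes 7 were higher and 4 lower, or 4 and 2 among the fewer members left without probesets that had repeated values. The target Hes1 was 6.86, 6.86 and 6.77 in the HC11-FL arrays and 7.95, 7.85 and 7.90 in the HC11-mutB1 arrays (log2 fold change 1.07, SE 0.08, adjusted p = 4.7e-05). Of 44 Wnt genes 9 were higher and 6 lower, and 5 were higher without HC11-FL replicate 2 or HC11-mutB1 replicate 2. The Wnt shares in both directions were little above those of all genes, and the Wnt median was -0.03. Wnt11 rose 2.16-fold, while Rspo3, a secreted enhancer of Wnt signalling, was 8.25, 8.34 and 8.41 in the HC11-FL arrays and 4.49, 4.4 and 4.42 in the HC11-mutB1 arrays (14.9-fold lower), and the receptor Ror1 was 3.47-fold lower. Of 50 axon guidance genes 12 were higher and 9 lower, among them Efnb1 (2.96-fold higher) and Efnb2 (4.27-fold lower), which are ligands of Eph receptors.

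Many mitotic genes were higher by small amounts. Of 84 tested 47 were higher and none lower, 4 of them at least 2-fold, with a median log2 fold change of 0.48. Cdc25b, a phosphatase that starts mitosis, was 7.26, 7.19 and 7.24 in the HC11-FL arrays and 8.52, 8.59 and 8.53 in the HC11-mutB1 arrays (log2 fold change 1.32, SE 0.06, adjusted p = 2.6e-06). Ccna2, cyclin A2, was 8.78, 8.76 and 8.83 in the HC11-FL arrays and 9.68, 9.89 and 9.67 in the HC11-mutB1 arrays (log2 fold change 0.96, SE 0.08, adjusted p = 6.6e-05). The strains did not overlap for either gene, but the count depended on single arrays: it was 31 without HC11-FL replicate 1, 29 without HC11-FL replicate 3 and 31 without HC11-mutB1 replicate 3. It was 64 after centring on chromosome bins. Relative to HC11-ΔSAP cells, 82 of the 84 genes were higher in HC11-mutB1 cells and none lower, where 10.7% of all genes were higher and 9.75% lower, and the median of HC11-ΔSAP against HC11-FL was -1.17. Of 60 DNA replication genes 19 were higher and 1 lower (median 0.21), and 21 were higher and 4 lower after that centring. Without HC11-FL replicate 1 or replicate 3, 12 were higher, and none was lower without any 1 of the 6 arrays or HC11-ΔSAP replicate 2. Gins3, a subunit of the replicative helicase, was 6.50, 6.78 and 6.81 in the HC11-FL arrays and 8.03, 7.96 and 7.91 in the HC11-mutB1 arrays (log2 fold change 1.27, SE 0.08, adjusted p = 2.3e-05). Of 23 inhibitors of cyclin-dependent kinases and p53 targets 4 were higher (2 without HC11-FL replicate 1 or 2 or HC11-mutB1 replicate 1 or 3) and 6 lower, with Plk2 rising 2.45-fold and Cdkn2c falling 2.03-fold.

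**Figure D3:**
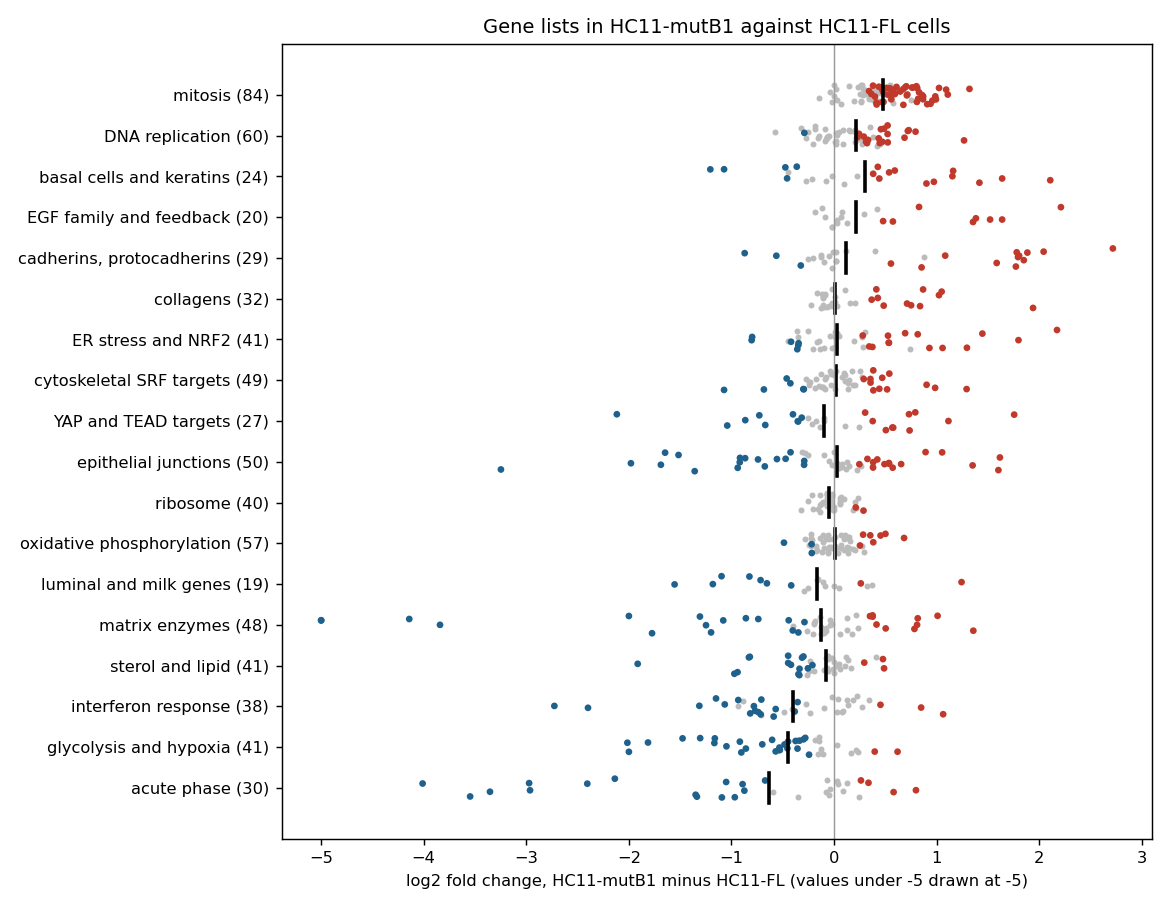
Log2 fold change of HC11-mutB1 against HC11-FL cells (x axis) for each tested gene of the gene groups (y axis, number tested in parentheses). Red and blue points passed an adjusted p of 0.01, grey points did not, black bars are medians, and values under -5 (Mmp3 and Lox) are drawn at -5. The mitotic genes have a median of 0.48 and the acute phase genes of -0.63.

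Some genes for amino acid transport and for defence against oxidants also rose. Of 38 amino acid genes 13 were higher and 7 lower, 6 and 2 of them at least 2-fold. Slc1a3, a glutamate transporter, was 7.78, 7.62 and 7.70 in the HC11-FL arrays and 10.01, 9.90 and 9.92 in the HC11-mutB1 arrays (log2 fold change 2.25, SE 0.05, adjusted p = 1.6e-07). Slc7a11, the cystine transporter, was 7.90, 7.87 and 7.85 in the HC11-FL arrays and 9.23, 9.45 and 9.29 in the HC11-mutB1 arrays (log2 fold change 1.45, SE 0.07, adjusted p = 6.0e-06). Both were higher in every HC11-mutB1 array, while Slc15a2, a transporter of peptides, fell from between 9.62 and 9.77 to 6.82. Glul, also of this group, fell further (log2 fold change -4.51, adjusted p = 1.3e-07, and -3.75 in another probeset). Its HC11-mutB1 mean was 3.51, so the size of that fold depends on the floor of the array. Of 41 genes of the unfolded protein response and of NRF2 14 were higher and 6 lower (3 without HC11-FL replicate 3 or HC11-mutB1 replicate 1). Nqo1, a quinone reductase and NRF2 target, was 4.54, 4.68 and 4.84 in the HC11-FL arrays and 6.84, 6.84 and 6.91 in the HC11-mutB1 arrays (log2 fold change 2.17, SE 0.08, adjusted p = 1.1e-06). Gpx2, a glutathione peroxidase, was 8.96, 9.06 and 9.02 in the HC11-FL arrays and 10.79, 10.88 and 10.77 in the HC11-mutB1 arrays (log2 fold change 1.80, SE 0.05, adjusted p = 2.5e-07). Hmox1, haem oxygenase, rose 1.76-fold.

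Known SRF targets of the cytoskeleton moved in both directions. Of 49 tested 12 were higher (24.5%, against 15.7% of all genes), 6 lower (12.2% against 10.7%) and 31 did not pass, with a median of 0.02, and 1 in each direction reached 2-fold. Relative to HC11-ΔSAP cells 16 were higher and 2 lower, where 10.7% of all genes were higher and 9.75% lower. Csrp2, a LIM protein of smooth muscle, was 8.19 in all 3 HC11-FL arrays and 9.57, 9.44 and 9.44 in the HC11-mutB1 arrays (log2 fold change 1.29, SE 0.05, adjusted p = 1.2e-06) and was -0.83 in HC11-ΔSAP against HC11-FL cells. Tpm2, a tropomyosin, and Svil, supervillin, had log2 fold changes of 0.90 and 0.99. Acta2 was the member that fell at least 2-fold. Actb, Tagln and Myl9, widely used SRF targets named after their values were seen, had log2 fold changes of -0.09, 0.02 and 0.14 with adjusted p = 0.22, 0.88 and 0.49, and Vcl, vinculin, had -0.29 (adjusted p = 0.0012). Of 25 immediate early genes 7 were higher and 2 lower. Myc was 11.24, 11.17 and 11.18 in the HC11-FL arrays and 9.86, 9.91 and 9.92 in the HC11-mutB1 arrays (log2 fold change -1.30, SE 0.04, adjusted p = 7.1e-07), and Dusp4 was 7.38, 7.21 and 7.21 in the HC11-FL arrays and 8.59, 8.60 and 8.52 in the HC11-mutB1 arrays (log2 fold change 1.31, SE 0.06, adjusted p = 3.5e-06). Of 27 YAP and TEAD genes 10 were higher and 9 lower (5 without HC11-FL replicate 3 or HC11-mutB1 replicate 2 or 3), and Yap1, the coactivator of TEAD factors, was 11.11, 11.04 and 11.05 in the HC11-FL arrays and 8.95, 8.96 and 8.93 in the HC11-mutB1 arrays (log2 fold change -2.12, SE 0.04, adjusted p = 7.8e-08). Of 22 genes of caveolae and membrane shaping 6 were higher and 3 lower, and Cavin1, which coats caveolae, was 7.36, 7.18 and 7.23 in the HC11-FL arrays and 6.03, 6.18 and 6.04 in the HC11-mutB1 arrays (2.26-fold lower). Cavin2 fell further (log2 fold change -4.07, with an HC11-mutB1 mean of 3.38, near the floor), and Cav1 rose (0.54). Of 19 genes of epithelial-mesenchymal transition 7 were higher and 5 lower (3 without HC11-FL replicate 1 or 3 or HC11-mutB1 replicate 2 or 3), with Id4 rising 2.43-fold, while Zeb2, a repressor of E-cadherin, was 7.12, 7.22 and 7.23 in the HC11-FL arrays and 4.30, 4.31 and 4.28 in the HC11-mutB1 arrays (7.41-fold lower) with Cdh1 itself at a log2 fold change of 0.12 (adjusted p = 0.084).

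The CArG box, by its consensus of 10 bases on either strand, was searched in RefSeq promoter windows of 250 bases before to 50 after the gene start, on GRCm38.p6. It occurred in 2.68% of 261 windows of higher genes (7 genes), 4.04% of 223 windows of lower genes (8 genes) and 1.33% of all 13201 windows of tested genes. In the 150 bases before the start these shares were 0.766%, 1.79% and 0.75%. A match is a description and not a shown binding site. The stretches are shown because they hold the consensus letters in genes called in each direction, with the box in capitals. In the higher genes Nebl, Tbc1d9 and Ppt2, named after their values were seen, with log2 fold changes of 1.29, 1.30 and 1.32, they read as follows.
Nebl, chr2:17462984-17463043, minus strand: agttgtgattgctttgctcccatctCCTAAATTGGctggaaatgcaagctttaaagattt
Tbc1d9, chr8:83165130-83165189, plus strand: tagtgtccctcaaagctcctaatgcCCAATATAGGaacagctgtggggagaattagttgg
Ppt2, chr17:34628052-34628111, minus strand: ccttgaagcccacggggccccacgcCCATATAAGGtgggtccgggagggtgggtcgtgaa
In the lower genes Rnf128, Fermt2, Glipr2 and Prune2, also named after their values were seen, with log2 fold changes of -2.72, -1.30, -1.71 and -1.01, they read as follows.
Rnf128, chrX:139610378-139610437, plus strand: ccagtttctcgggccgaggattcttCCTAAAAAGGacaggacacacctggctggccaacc
Fermt2, chr14:45530235-45530294, minus strand: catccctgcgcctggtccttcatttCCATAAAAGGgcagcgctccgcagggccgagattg
Glipr2, chr4:43957593-43957652, plus strand: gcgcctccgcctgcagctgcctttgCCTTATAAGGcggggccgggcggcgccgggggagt
Prune2, chr19:16956013-16956072, plus strand: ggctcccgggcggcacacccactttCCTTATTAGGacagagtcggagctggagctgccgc
Nebl encodes an actin-binding protein, and Fermt2 encodes kindlin-2, which activates integrins. The boxes began 162 bases before the gene start in Nebl, 70 in Ppt2, 204 in Fermt2 and 84 in Glipr2.

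Acute phase genes were the group with the lowest median. Of 30 tested 15 were lower and 4 higher (2 higher without HC11-FL replicate 1 or 2, HC11-ΔSAP replicate 2 or any 1 HC11-mutB1 array), 11 of them at least 2-fold lower, with a median of -0.63 against 0.08 for HC11-ΔSAP against HC11-FL. Relative to HC11-ΔSAP cells 18 were lower and 2 higher, where 9.75% of all genes were lower and 10.7% higher. Hp, haptoglobin, was 10.98, 10.96 and 11.02 in the HC11-FL arrays and 7.04, 6.75 and 7.13 in the HC11-mutB1 arrays (log2 fold change -4.01, SE 0.09, adjusted p = 1.3e-07), and HC11-ΔSAP cells had -0.12 against HC11-FL. Saa3, a serum amyloid, was 12.64, 12.76 and 12.63 in the HC11-FL arrays and 9.19, 9.38 and 9.40 in the HC11-mutB1 arrays (log2 fold change -3.35, SE 0.07, adjusted p = 1.0e-07), with -0.33 in HC11-ΔSAP against HC11-FL cells. These genes were low in the HC11-mutB1 arrays only. Other members were also low in HC11-ΔSAP cells. Ptx3, a pentraxin of innate immunity, was 7.81, 7.94 and 7.76 in the HC11-FL arrays and 4.87, 4.89 and 4.86 in the HC11-mutB1 arrays (log2 fold change -2.96, SE 0.11, adjusted p = 1.5e-06). Ltf, the iron-binding milk protein lactoferrin, was 6.35, 6.48 and 6.41 in the HC11-FL arrays and 4.19, 4.09 and 3.75 in the HC11-mutB1 arrays (log2 fold change -2.41, SE 0.10, adjusted p = 2.4e-06). Il1rn, the antagonist of the interleukin-1 receptor, was 7.80, 8.06 and 7.93 in the HC11-FL arrays and 6.61, 6.66 and 6.47 in the HC11-mutB1 arrays (log2 fold change -1.35, SE 0.09, adjusted p = 2.3e-05). For Ptx3, Ltf and Il1rn HC11-ΔSAP against HC11-FL cells had log2 fold changes of -3.37, -1.77 and -0.84. Saa1, a further serum amyloid, was 5.01, 5.30 and 5.22 in the HC11-FL arrays and 2.94, 3.01 and 3.17 in the HC11-mutB1 arrays (4.4-fold lower) and was 1.66 in HC11-ΔSAP against HC11-FL cells, with near-identical Saa2 as a neighbour, so the split between these copies is uncertain.

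C/EBP factors are regulators of acute phase genes, and their element was searched as TTGCNNAA on both strands. It occurred in 17.9% of windows of lower genes (39 genes), 8.43% of windows of higher genes (22 genes) and 8.21% of all windows, and in the 150 bases before the start in 8.97%, 4.98% and 3.96%. Higher genes with the element included Slc7a11, Vegfc and Inhba, and the lower acute phase genes Hp and Il1rn gave no match. A match is not a shown binding site, and a part of C/EBP factors was not tested. The stretches are chosen examples from lower genes of the acute phase and matrix enzyme groups. The element is in capitals as read on the strand of the gene.
Saa3, chr7:46715743-46715800, minus strand: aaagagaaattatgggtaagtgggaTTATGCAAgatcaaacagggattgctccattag
Saa1, chr7:46743130-46743187, minus strand: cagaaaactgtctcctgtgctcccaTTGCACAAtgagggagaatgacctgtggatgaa
Saa2, chr7:46751625-46751682, plus strand: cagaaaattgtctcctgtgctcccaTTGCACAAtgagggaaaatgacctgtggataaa
Ltf, chr9:111019192-111019249, plus strand: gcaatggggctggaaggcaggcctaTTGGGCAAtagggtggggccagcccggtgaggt
Ptx3, chr3:66219805-66219862, plus strand: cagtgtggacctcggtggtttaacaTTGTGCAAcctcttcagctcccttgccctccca
Mmp3, chr9:7445649-7445706, plus strand: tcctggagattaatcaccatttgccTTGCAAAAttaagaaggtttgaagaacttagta
The Saa1 and Saa2 stretches differ at a few letters only. The AP-1 element TGANTCA occurred in 6.13%, 9.42% and 5.43% of windows of higher, lower and all genes, and the interferon-stimulated response element in 4.6%, 7.17% and 2.76%. The cell cycle element TTTGAA was in 11.1%, 9.42% and 11.6%, the E2F element TTTNNCGC in 6.51%, 6.28% and 8.05%, the TEAD element GGAATG in 13.4%, 13.5% and 12.2%, and the NF-kB element in 10.3%, 9.42% and 10.6%. The STAT element TTCCNGGAA was in none of the windows of higher genes, 1.79% of those of lower genes and 1.19% of all.

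Many interferon and glycolysis genes and some chemokine genes were lower as well. Of 38 interferon genes 16 were lower and 3 higher, with a median of -0.40, and 10 were lower without HC11-FL replicate 1, HC11-FL replicate 3 or HC11-mutB1 replicate 2. Trim30a, a restraint on innate immune signalling, was 7.05, 6.89 and 6.77 in the HC11-FL arrays and 4.30, 4.07 and 4.16 in the HC11-mutB1 arrays (6.62-fold lower), and Stat2, which carries the interferon signal, was 9.16, 9.23 and 9.24 in the HC11-FL arrays and 8.02, 8.15 and 8.27 in the HC11-mutB1 arrays (log2 fold change -1.07, SE 0.07, adjusted p = 2.8e-05). Against HC11-ΔSAP cells 17 of the 38 were lower and none higher, where 9.75% of all genes were lower and 10.7% higher. Of 41 genes of glycolysis and hypoxia 27 were lower and 2 higher, 8 of them at least 2-fold lower, with a median of -0.45. That median was -0.55 in HC11-ΔSAP against HC11-FL cells, and the 2 comparisons share the HC11-FL arrays. Pfkl, phosphofructokinase, was 10.22, 10.19 and 10.24 in the HC11-FL arrays and 9.06, 9.06 and 9.05 in the HC11-mutB1 arrays (log2 fold change -1.16, SE 0.04, adjusted p = 1.2e-06). Bnip3, a hypoxia-inducible protein of mitochondria, was 10.59, 10.63 and 10.60 in the HC11-FL arrays and 9.17, 9.11 and 9.11 in the HC11-mutB1 arrays (log2 fold change -1.48, SE 0.05, adjusted p = 6.1e-07). Eno3, an enolase, was 7.27, 7.26 and 7.34 in the HC11-FL arrays and 5.28, 5.21 and 5.33 in the HC11-mutB1 arrays (4.04-fold lower). Every HC11-mutB1 array was below every HC11-FL array in these 3 genes. Of 32 chemokines and cytokines 4 were higher and 8 lower, with Ccl5 2.90-fold and Cxcl5 2.21-fold lower and Cx3cl1 2.38-fold higher. Of 41 sterol and lipid genes 3 were higher and 15 lower, or 10 in the fit of 6 arrays, and Dgat2, which makes triglycerides, was 10.47, 10.40 and 10.52 in the HC11-FL arrays and 8.57, 8.60 and 8.48 in the HC11-mutB1 arrays (log2 fold change -1.91, SE 0.05, adjusted p = 2.5e-07). Most ribosomal protein genes (2 of 40 higher, none lower) and genes of oxidative phosphorylation (7 of 57 higher, 3 lower) did not pass. Without any 1 of the 6 arrays 0 or 1 ribosomal genes were higher and 1 oxidative phosphorylation gene was lower, and 4 of the latter were higher without HC11-FL replicate 1 or HC11-mutB1 replicate 1 or 2.

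The largest falls in genes with both strain means at 4 or more ran from 7.39-fold to 17.6-fold. Of these 20 genes, 12 were also lower than in HC11-ΔSAP cells by adjusted p, 9 of them at least 2-fold, and 1 was higher (Slc15a2). By adjusted p at any fold 9.75% of all genes were lower than in HC11-ΔSAP cells and 10.7% higher. In HC11-ΔSAP against HC11-FL cells, which share the HC11-FL arrays, 15 of the 20 were lower by the same adjusted p and fold and 2 missed the adjusted p, where 2.1% of all genes were lower. Parm1, a mucin-like membrane protein, was 8.47, 8.51 and 8.57 in the HC11-FL arrays and 5.00, 4.92 and 5.01 in the HC11-mutB1 arrays (11.7-fold lower), and HC11-ΔSAP cells had -1.66 against HC11-FL. Plcb4, a phospholipase C, was 9.0, 9.09 and 9.07 in the HC11-FL arrays and 6.19, 6.17 and 5.93 in the HC11-mutB1 arrays (7.77-fold lower), and HC11-ΔSAP cells had 0.41 against HC11-FL. Ddr2, a collagen receptor, was 6.82, 7.26 and 7.22 in the HC11-FL arrays and 4.04, 4.06 and 4.19 in the HC11-mutB1 arrays (8.03-fold lower), with -2.69 in HC11-ΔSAP against HC11-FL cells. The HC11-mutB1 arrays of these genes lay near the floor or well under HC11-FL. Acss3, an acyl-CoA synthetase of mitochondria, was 8.67, 8.83 and 8.86 in the HC11-FL arrays and 3.60, 3.56 and 3.89 in the HC11-mutB1 arrays, with the HC11-mutB1 mean under 4, so the size of its fold depends on the floor of the array. The same limit holds for Lox, a lysyl oxidase, which was 10.41, 10.57 and 10.47 in the HC11-FL arrays. It was 2.75, 3.55 and 3.63 in the HC11-mutB1 arrays (log2 fold change -7.17), and -2.20 in HC11-ΔSAP against HC11-FL cells.

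Medians over whole chromosomes were shifted as well as single genes. The median log2 fold change was 0.23 on chromosome 8 (732 genes, 40.4% higher and 3.42% lower), 0.23 on chromosome 18 (323 genes, 35.9% and 5.57%), 0.18 on chromosome 2 (1054 genes, 31.9% and 3.8%) and 0.13 on chromosome X (354 genes, 25.1% and 5.93%). It was -0.22 on chromosome 14 (444 genes, 3.6% higher and 34.7% lower) and -0.13 on chromosome 1 (709 genes, 5.36% and 24.1%). These medians were close to equal in the 3 HC11-mutB1 arrays, with 0.24, 0.23 and 0.21 on chromosome 8 and -0.23 in each on chromosome 14. When each chromosome was split by gene order into 10 bins of equal gene number, 32 of 200 bins had a median of at least 0.15 and 18 of at most -0.15. Every bin of chromosome 14 was lower, from -0.28 to -0.12, and every bin of chromosome 2 was higher, from 0.10 to 0.29. In HC11-ΔSAP against HC11-FL cells, which share the HC11-FL arrays, the medians were 0.26 on chromosome 8, 0.17 on 18, 0.07 on 2, -0.02 on X, -0.02 on 14 and -0.16 on 1. DNA copy number was not measured, and its part in these shifts was not tested. After each array was centred on the median of its chromosome bin, 259 of the 292 higher genes and 208 of the 224 lower genes were still called. The group medians were then 0.49 for mitosis, -0.69 for acute phase, -0.44 for interferon and -0.42 for glycolysis and hypoxia.

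**Figure D4:**
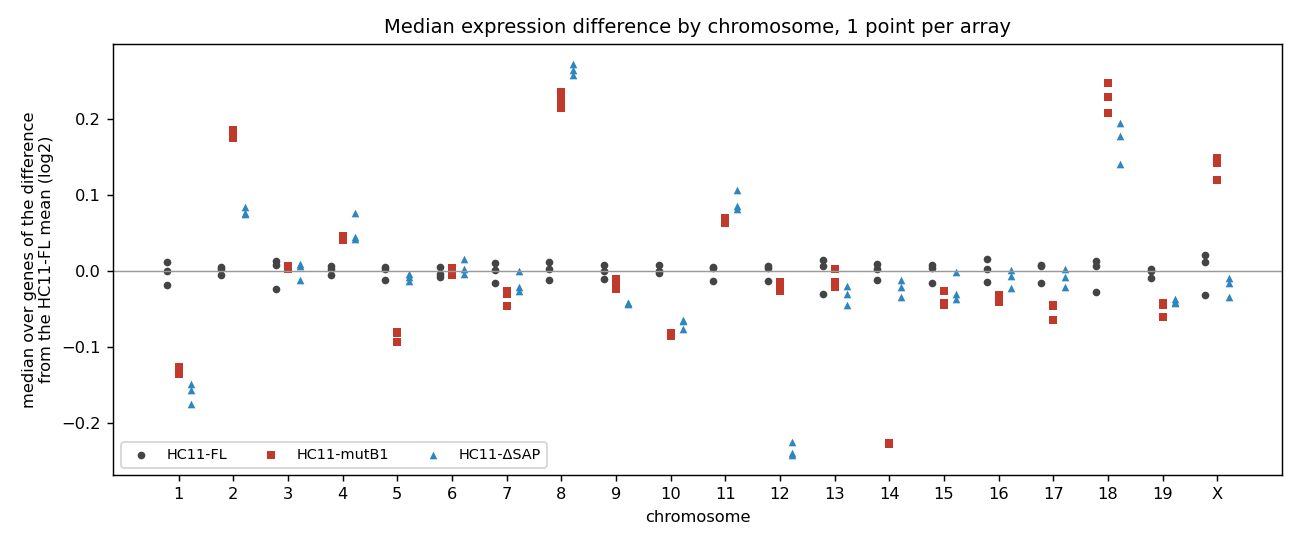
Median log2 difference of each array from the HC11-FL mean (y axis) by chromosome (x axis). Each point is 1 array, coloured by strain, and chromosomes 2, 8, 18 and X sit above 0 and chromosomes 1 and 14 below 0 in all 3 HC11-mutB1 arrays.

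Some called genes also lay next to each other. Of the 292 higher genes 42 (14.4%) had a neighbouring tested gene called in the same direction, as had 41 of the 224 lower genes (18.3%). A gene was counted when the tested gene on either of its sides was called. A share for comparison was not computed. The shares of all tested genes called, 2.22% higher and 1.71% lower, look at 1 gene each and are lower by construction. On chromosome 8 Slc7a2, Pdgfrl and Mtus1 were adjacent and higher, as were Aga, Neil3 and Vegfc. Pdgfrl was 7.43, 7.31 and 7.36 in the HC11-FL arrays and 9.14, 9.19 and 9.14 in the HC11-mutB1 arrays and Aga, a lysosomal hydrolase, was 6.55, 6.76 and 6.55 in the HC11-FL arrays and 9.17, 9.15 and 9.18 in the HC11-mutB1 arrays. The TNF receptor family genes Tnfrsf26, Tnfrsf22 and Tnfrsf23 on chromosome 7 are close copies of each other and were higher together (Tnfrsf22, log2 fold change 1.47). The longest run of lower genes held 7 on chromosome 9, Dcun1d5, Mmp13, Mmp12, Mmp3, Mmp10, Tmem123 and Birc2. Its matrix metallopeptidases Mmp13, Mmp12, Mmp3 and Mmp10 had log2 fold changes of -3.84, -4.14, -6.09 and -1.08, and Dcun1d5, Tmem123 and Birc2 had -1.35, -1.34 and -1.43. Elsewhere, 3 metalloreductase genes, Steap2, Steap1 and Steap4, were adjacent on chromosome 5, with log2 fold changes of -1.58 for Steap1 and -1.34 for Steap4. The chromosome of the longest lower run, 9, also held a run of 4 lower genes, Yap1, Cfap300, Cep126 and Pgr. The distance between these runs was not examined, so Yap1, Pgr and the matrix metallopeptidases may not be separate in position. Pgr, the progesterone receptor, was 5.16, 5.35 and 5.03 in the HC11-FL arrays and 3.49, 3.79 and 3.61 in the HC11-mutB1 arrays (log2 fold change -1.55, SE 0.12, adjusted p = 6.6e-05). Pvt1, a non-coding neighbour of Myc, was 8.84, 8.79 and 8.85 in the HC11-FL arrays and 5.57, 5.55 and 5.61 in the HC11-mutB1 arrays (9.53-fold lower). Genes of these runs other than those with values in the gene groups or among the largest changes were named after their values were seen.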

How the data were processed

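Total RNA of 9 samples was hybridised to Affymetrix Mouse Gene 1.0 ST arrays. The authors deposited log2 expression values normalized by RMA, made with affy in R 2.10.0 per the submitters' processing notes, and these values were used as deposited. limma 3.58.1 in R 4.3.3 fitted 1 mean per strain over the 9 arrays, with 6 residual and 1.93 prior degrees of freedom, and Benjamini-Hochberg adjustment covered all 34760 probesets. Genes were called where 3 filters held: adjusted p up to 0.01, fold change 2 or more, and a 6-array mean log2 value of 4 or more. Of the probesets, 21640 had 1 gene symbol, 1321 several and 11799 none listed. Symbols came from the platform annotation, updated through the RefSeq gene table of GRCm38.p6, and each gene was read from its brightest probeset. Named genes were the 20 largest folds in each direction, 8 more with the lower strain mean under 4, and up to 8 passing members of each of 38 gene lists, with all cell type markers and the Mkl1 family. The members and lists were chosen with earlier results of these data known. With 3 arrays against 3, an exact permutation test of a single gene cannot go below p = 0.1. Replicate numbers did not pair the samples (correlations of deviations 0.12, -0.07 and -0.10). Precision is limited by the number of arrays. 1 of the gene lists is not reported here.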

Additional observations from a re-analysis of the deposited data

How the results depend on the processing

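The counts of higher and lower probesets (337 and 248) stayed within 1.5 times under every other normalization, variance model and filter tried except these. Without a fold minimum they were 2412 and 1695, with treat against a 2-fold change 110 and 95, and with a mean of at least 6 the lower count was 161. Leaving out 1 array gave 327 to 339 and 240 to 255. The replicate block gave 337 and 246, with numbers that do not pair the samples. Centring each array on bins of 10 per chromosome, chosen after seeing the data, gave 264 and 221 genes and turned Ndufa2 to -0.0392. Of 278 named genes that passed, 0 to 18 no longer passed under a given alternative other than treat, and of the 168 called ones only Col9a3 failed any of these. Without probesets that had a repeated value, 211 of the 278 kept a value and all of them still passed. Under treat, which tests for a change beyond 2-fold, 99 of the 168 passed, and the gene groups had 0 to 7 members per direction (0 for mitosis, higher). The ratio of the interferon element in windows of higher genes to all windows went from 1.67 to 0.636 in the 150 bases before the start. The causes were not tested. Dim probesets near the floor limit the size of large folds.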
